A study of Mus musculus with 2 samples.

Results

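A set of regulators that specify chromaffin cells and sympathetic neurons, 8 of 21755 protein-coding genes, were examined in open-chromatin maps of the newborn mouse adrenal gland. They are Phox2a, Hand1, Hand2, Gata2, Gata3, Insm1, Isl1 and Tfap2b. They were chosen by name, not by a measured value, but with earlier results of these data known. At 6 of these genes a peak of open chromatin lay at an annotated transcription start site (TSS) in both libraries, but most of these peaks were weak: at Phox2a, Hand2, Insm1 and Isl1 the signal exceeded that of at most 22.3% of genes with such a peak in replicate 1 and 19.8% in replicate 2. Gata2 carried the strongest of the TSS peaks found at the same place in both libraries, Hand1 had no TSS peak at all, and Tfap2b had one in replicate 2 alone. The strongest open regions of the set lay in an intron of Gata3, downstream of Hand1 and far upstream of Gata2. The Gata3 region was centred 1090 bp from an annotated start of the gene in replicate 1 and 1100 bp in replicate 2. That of Gata2 was centred 1962 bp from an annotated start of another gene.

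The maps are DNase-seq, which reads out where the enzyme DNase I can reach and cut the DNA. Both libraries, biological replicates 1 and 2 of 1 group, came from whole adrenal gland of female B6CASTF1/J mice, first-generation hybrids, aged 4 days, with no treatment and no mutant allele named. The descriptions speak of 3 females for each sample, yet the donor identifier is the same for both, so whether the replicates are separate animals is not known here; there is no second group to compare with. Replicate 1 held 46031 peaks and 98364 footprints, short protected stretches within open regions, and replicate 2 held 87387 peaks and 141983 footprints. The sources used here do not state the read depth, so values are reported per library, with no test.

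Chromaffin cells of the adrenal medulla and sympathetic neurons both arise from the neural crest. Phox2a, Hand2, Gata3, Insm1 and Isl1 belong to the network of factors that turns on the enzymes of catecholamine synthesis in these cells, and Gata2, Hand1 and Tfap2b act in the same lineage and in several other tissues. The medulla is a small part of a gland that is mostly steroid-producing cortex. In a whole gland, fewer cells with an open region and less opening per cell cannot be told apart. Marker genes of several cell types had TSS peaks in both libraries: 4 of 7 for cortex, 2 of 5 for Schwann cells, 2 of 6 for endothelium, 2 of 4 for stroma, 2 of 4 for neurons and 1 of 3 for T cells. Over all protein-coding genes the share was 61.3%, so these counts, near or below it, do not mark a cell type. For chromaffin cells, 8 of the 12 effector genes listed carried a peak at a start in each library, a count likewise near that share. Th, Dbh and Pnmt, the enzymes of catecholamine synthesis most used to recognise these cells, were the 3 with none in either library. With windows of 2.5 kb rather than 1 kb around the starts, Th had a peak in both. Away from starts, 6, 3 and 7 peaks within 100 kb of them were found in both libraries, beside a median of 2 over all genes. Such peaks may belong to neighbouring genes. The part that the cell makeup of the gland plays in the values below was not tested.

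The sequences on which the following values turn are shown from the reference genome GRCm38 (mm10), 5′ to 3′, with motif matches in capitals. The first set holds the strongest distal peak of 4 genes, as bounded in replicate 2 and read on the plus strand of the reference, because they include the 3 strongest open regions of the set and the region nearest to Hand2. They are a selection from the 13 distal peaks seen in both libraries; those of Phox2a and Insm1 lie in transcribed ends or coding sequence and are given by position below.

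Gata3 intron, chr2:9879601-9879800, plus strand: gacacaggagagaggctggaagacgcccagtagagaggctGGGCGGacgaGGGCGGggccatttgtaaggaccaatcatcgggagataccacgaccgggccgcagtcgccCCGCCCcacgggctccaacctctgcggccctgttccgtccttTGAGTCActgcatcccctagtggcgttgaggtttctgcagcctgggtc

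Hand1 downstream, chr11:57820081-57820260, plus strand: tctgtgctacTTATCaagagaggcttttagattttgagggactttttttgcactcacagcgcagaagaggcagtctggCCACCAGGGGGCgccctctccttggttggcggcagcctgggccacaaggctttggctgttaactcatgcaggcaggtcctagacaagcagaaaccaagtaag

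Gata2 far upstream, chr6:88106121-88106320, plus strand: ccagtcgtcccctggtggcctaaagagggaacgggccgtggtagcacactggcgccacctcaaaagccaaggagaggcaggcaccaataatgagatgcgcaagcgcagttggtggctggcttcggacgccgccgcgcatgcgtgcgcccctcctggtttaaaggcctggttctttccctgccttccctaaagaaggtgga

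Hand2 downstream, chr8:57328661-57328859, plus strand: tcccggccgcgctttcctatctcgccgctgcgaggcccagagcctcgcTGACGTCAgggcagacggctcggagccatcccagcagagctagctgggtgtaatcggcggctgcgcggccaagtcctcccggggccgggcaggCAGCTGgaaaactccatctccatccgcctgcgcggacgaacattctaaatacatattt

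In the Gata3 peak the capitals mark GGGCGG, the core of a GC box bound by SP and KLF factors, on either strand, and TGANTCA, an AP-1 site. In the Hand1 peak they mark GATAA, the core bound by GATA factors, on the minus strand, and a CTCF core, the motif of the factor that anchors chromatin loops. In the Hand2 peak they mark TGACGTCA, the full cAMP response element, and CAGCTG, an E box of the kind bound by proneural factors. The Gata2 peak held no match to the 13 motifs searched.

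The second set holds the 150 bp before the 5′ end of 5 genes, read in the direction of transcription, because these stretches show the base composition before the starts of 3 genes that had a TSS peak in both libraries and of the 2 that did not. Peaks of both libraries reached the Isl1 stretch, a peak of replicate 1 alone reached that of Phox2a and a peak of replicate 2 alone that of Insm1.

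Phox2a, peak in replicate 1, chr7:101818163-101818312, plus strand: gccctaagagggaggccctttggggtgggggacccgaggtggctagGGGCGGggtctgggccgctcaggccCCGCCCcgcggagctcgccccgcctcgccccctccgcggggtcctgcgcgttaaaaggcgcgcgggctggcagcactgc

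Insm1, peak in replicate 2, chr2:146221771-146221920, plus strand: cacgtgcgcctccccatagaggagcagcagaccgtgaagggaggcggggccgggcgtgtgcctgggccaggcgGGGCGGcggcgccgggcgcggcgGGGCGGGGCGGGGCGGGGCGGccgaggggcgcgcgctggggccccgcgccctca

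Isl1, peak in both, chr13:116309690-116309839, minus strand: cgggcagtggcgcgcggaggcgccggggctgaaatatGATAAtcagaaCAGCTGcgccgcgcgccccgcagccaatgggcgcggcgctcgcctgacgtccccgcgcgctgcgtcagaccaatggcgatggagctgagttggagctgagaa

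Hand1, no peak, chr11:57832819-57832968, minus strand: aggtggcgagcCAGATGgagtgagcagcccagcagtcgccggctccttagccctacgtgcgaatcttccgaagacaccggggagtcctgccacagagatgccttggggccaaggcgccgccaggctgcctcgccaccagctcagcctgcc

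Tfap2b, no peak, chr1:19208764-19208913, plus strand: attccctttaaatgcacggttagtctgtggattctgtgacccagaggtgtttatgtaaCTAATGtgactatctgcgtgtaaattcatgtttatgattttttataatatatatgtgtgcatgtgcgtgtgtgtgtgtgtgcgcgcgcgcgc

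The capitals mark GGGCGG in Phox2a and Insm1, GATAA and CAGCTG in Isl1, CATCTG, an E box bound by HAND factors, in Hand1, and CTAATG, a homeodomain-type string, in Tfap2b. These stretches held 77.3% G or C at Phox2a, 84.7% at Insm1, 68.7% at Isl1, 67.3% at Hand1 and 41.3% at Tfap2b. They contained 16, 24, 21, 10 and 8 CpG dinucleotides in the same order.

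Isl1, a LIM-homeodomain factor of sympathetic, cardiac and motor neuron progenitors, had the most regular promoter of the set. Its peak spanned chr13:116309621-116309900 in replicate 1, with a deposited signal of 1.17, and chr13:116309681-116309900 in replicate 2, with a signal of 1.65. The peak covered the printed stretch before the 5′ end at 116309689, and it was present in the stricter peak list of both libraries. Signal here is the authors' value for each peak, in their own units, whose scaling the sources used here do not state. Among genes with a TSS peak, 22.3% had a lower signal than Isl1 in replicate 1 and 19.8% in replicate 2. A footprint at 116309730 to 116309737 in replicate 1 fell within one at 116309724 to 116309737 in replicate 2, over the bases gcgcgctgcgtcag, 5′ to 3′ in gene direction, and clear of the GATAA and CAGCTG matches.

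Gata2, a zinc-finger factor that also acts in blood and endothelial precursors, had its TSS peak at the second annotated start, 88198334, and none at its 5′ end, 88193891. The peak spanned chr6:88198621-88198740 with a signal of 1.72 in replicate 1 and chr6:88198541-88198740 with 2.75 in replicate 2, in the 5′ part of the shorter transcripts annotated as untranslated. It was in both stricter lists. Signals of this size were higher than those of 38.9% and 34.0% of genes with a TSS peak. In each library 4 footprints were called in the TSS windows; in replicate 1, 3 of them lay inside the peak. A footprint at 88198585 to 88198595 in replicate 1, outside its peak, fell within one at 88198584 to 88198595 in replicate 2, over atgggggggcgg, which holds the GC box. Another pair, 88198686 to 88198696 in replicate 1 and 88198680 to 88198686 in replicate 2, met at 1 base. With the 5′ end as the TSS examined, Gata2 did not count as open in both libraries. A further shared peak, chr6:88189601-88189960 in replicate 2, was centred 4111 bp before the 5′ end, with 1.19 in replicate 1 and 2.93 in replicate 2. Gata2 was its nearest coding gene. A start of Gm38708 lay within 1 kb, so it counted neither as a TSS peak of Gata2 nor as distal.

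Insm1, a single-exon zinc-finger gene of endocrine and chromaffin differentiation, was covered by several weak peaks. Replicate 1 had 4 peaks between 1000 bp before and the end of the gene, with signals from 0.614 to 0.904, and replicate 2 had 6, with signals from 0.554 to 1.13. They covered 13.9% and 24.0% of that 4100 bp span. The strongest TSS peak of replicate 2, chr2:146221161-146221460, lay before the 5′ end and was not called in replicate 1. The peak over the first bases of the gene was shared, chr2:146221968-146222230 with 0.904 in replicate 1 and chr2:146222011-146222200 with 0.633 in replicate 2. Inside it a footprint was called in both libraries at 146222133 to 146222142, over gccagcagcc.

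Phox2a, a paired-like homeodomain factor that drives dopamine β-hydroxylase, also had weak peaks whose places differed between libraries. At the 5′ end, 101818313, replicate 1 had a peak at chr7:101818281-101818401 with a signal of 0.887, while replicate 2 had peaks on either side of it, chr7:101817981-101818120 with 0.880 and chr7:101818408-101818487 with 0.739. None of the 3 overlapped a peak of the other library. The shared peak lay in the coding sequence near an internal start, with 1.01 in replicate 1 and 0.739 in replicate 2. Further 3′, replicate 2 alone had a stronger peak at chr7:101822081-101822340, with 1.57, in the stricter list. Phox2a ranked above 17.6% of genes with a TSS peak in replicate 1 and above 7.74% in replicate 2, on different peaks. The rank used the coding-sequence peak in replicate 1 and the peak before the 5′ end in replicate 2.

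Hand2, a basic helix-loop-helix factor needed for the noradrenergic fate, had 1 peak over its 5′ end, 57320983, which is also close to the start of the antisense gene Hand2os1. Its signal was 0.836 in replicate 1, at chr8:57320980-57321123, and 1.06 in replicate 2, at chr8:57320864-57321060. The peaks overlapped in part and neither was in a stricter list. The peak cannot be assigned to Hand2 or Hand2os1. A footprint was called in replicate 1 and 0 in replicate 2.

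Gata3, needed for sympathoadrenal differentiation and also a T cell regulator, counted as open in both libraries through different peaks. In replicate 1 the peak was chr2:9879581-9879800, in an intron, with a signal of 2.18; it reached the edge of the 1 kb window around the start of the shorter coding transcript, 9878600. Its counterpart in replicate 2, chr2:9879601-9879800, had a signal of 5.60 and began just outside the window. It counted as distal alone, while the peak of replicate 1 counted as both. The TSS peak of replicate 2 was another one, chr2:9874670-9874803 in the coding sequence, with 1.05. Gata3 therefore ranked above 52.9% of genes with a TSS peak in replicate 1 and above 10.8% in replicate 2, on different peaks. No peak lay at the 5′ end of the longer transcript, 9890034. Read as 1 region, the intronic peak was the strongest open region found in both libraries within the 8 genes, and each library called 3 footprints in it. Of the T cell markers, Lck had a TSS peak of 2.33 and 6.83, and Cd3e and Cd3g were without one. Whether T cells contribute to the Gata3 peak was not tested.

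Tfap2b, which encodes AP-2β, and Hand1, the partner of Hand2, had the least open starts. Tfap2b had TSS peaks in replicate 2 alone, chr1:19209931-19210081 with 0.730 and chr1:19214221-19214320 with 0.563, both over 1 kb from its 5′ end, 19208914. A further peak of replicate 2 upstream, chr1:19205701-19205860, had a signal of 1.58 and was in the stricter list. The starts of Hand1 carried no peak. Replicate 1 listed no position below a false discovery rate of 0.05 in its TSS windows, and replicate 2 listed 17 bp, with a lowest value of 0.0350. Tfap2b had no such position in replicate 1 and a lowest value of 0.0110 in replicate 2. By the same measure the lowest rates elsewhere were 0.000188 and 5.86e-18 at Gata3, 4.90e-06 and 2.48e-07 at Gata2, 5.74e-06 and 4.60e-06 at Isl1, 0.000699 and 1.45e-06 at Insm1, 0.00334 and 0.00306 at Phox2a, and 0.0101 and 0.00353 at Hand2, for replicates 1 and 2. Of all protein-coding genes, 63.3% and 67.5% had a position below 0.05 in their TSS windows.

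**Figure D1:**
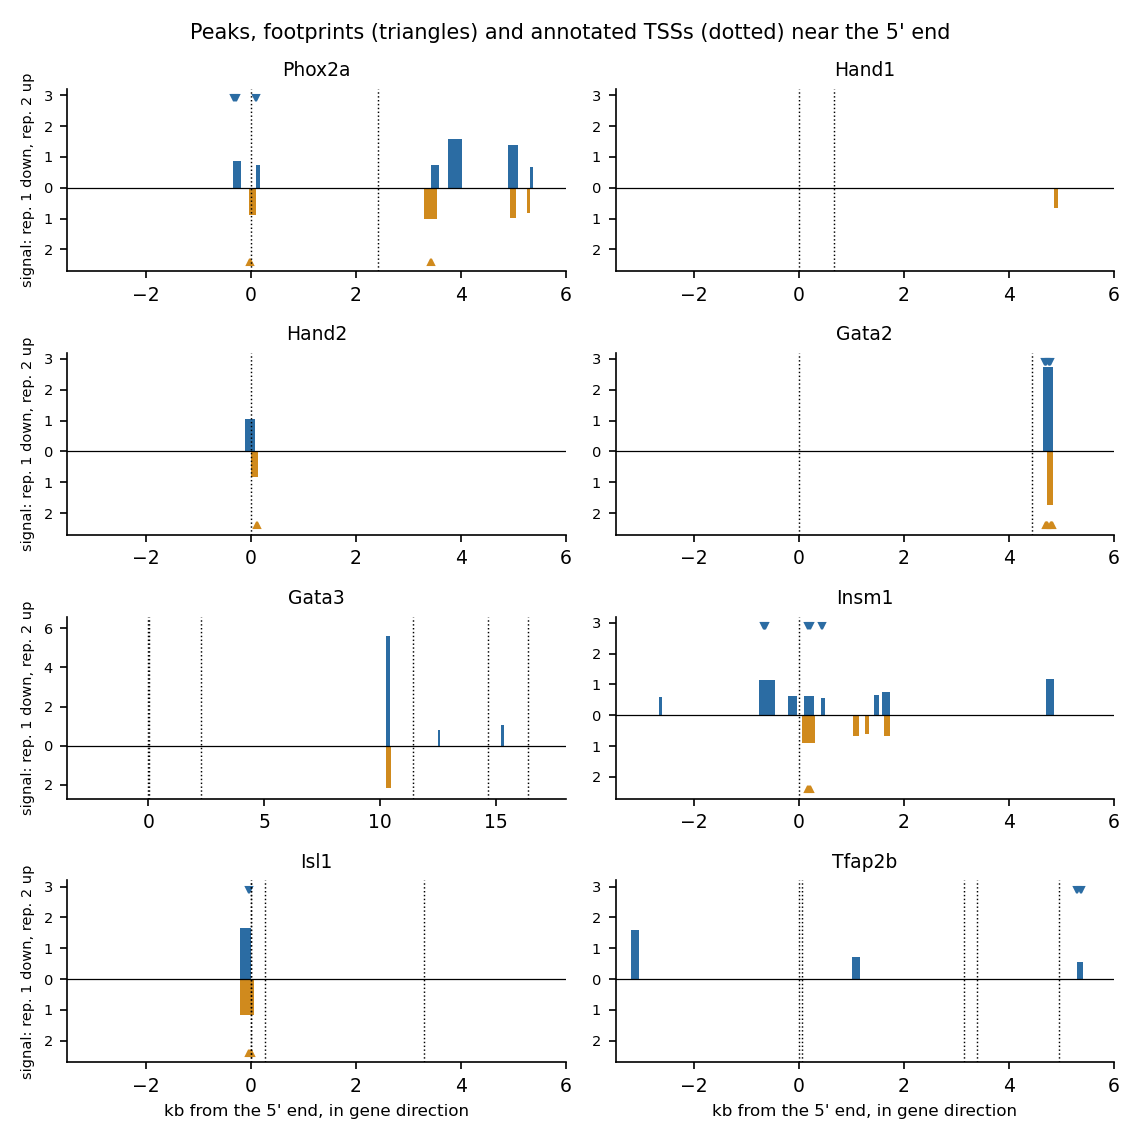
Peaks near the 5′ end of each gene: bars span each peak on the horizontal axis (kb from the 5′ end in gene direction; the Gata3 panel is wider) and reach its deposited signal, replicate 2 (blue) upward and replicate 1 (orange) downward. Triangles are footprints in the TSS windows and dotted lines annotated TSSs; Isl1 and Gata2 show 1 compact peak at the same place in both libraries, Insm1 several weak ones, and Hand1 no peak at its starts.

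Set beside all genes, the count of open promoters was near the background. Both libraries held a TSS peak for 61.3% of the protein-coding genes, against 6 of these 8. In the stricter lists the share of all genes was 54.8%, against 2 of 8, Gata2 and Isl1. The share of open genes depended on base composition: the figure was 94.5% for CpG-rich genes and 34.5% for the others. CpG-rich here means at least 0.6 times the CpG count expected from the base content and at least 50% G or C in the 500 bp to either side of the 5′ end. By this measure 5 of the 8 were CpG-rich and all 5, Phox2a, Hand2, Gata2, Insm1 and Isl1, were open in both libraries; in the stricter lists, where 88.9% of CpG-rich genes were open, 2 of the 5 were. At the 5′ ends the observed over expected values were 0.703 at Phox2a, 0.743 at Hand2, 0.767 at Gata2, 0.934 at Insm1 and 0.774 at Isl1. Shared peaks did not all lie there: at the Gata2 start with the peak, 88198334, the value was 0.659. At the internal Phox2a start near its shared peak, 101820746, it was 0.571, below the threshold. At the 5′ ends of the 3 others, Gata3 had 0.481, Hand1 had 0.339, and Tfap2b had 0.673 but 39.7% G or C. The Gata3 class thus describes a start without a peak. At its start 9878600, whose window the replicate 1 peak reached, the value was 0.638 with 53.9% G or C, CpG-rich by the same thresholds. The Gata3 starts near the replicate 2 peak, 9875399 and 9873672, had 0.357 and 0.146.

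The level at the CpG-rich members was low among genes of this promoter type. Among CpG-rich genes with a TSS peak the median signal was 2.39 in replicate 1 and 4.86 in replicate 2. Hand2 exceeded 6.66% and 5.17% of them, Insm1 8.13% and 5.85%, Phox2a 10.4% and 3.23%, Isl1 13.7% and 10.9%, and Gata2 28.6% and 22.8%. At Insm1 and Phox2a these shares rest on different peaks in the 2 libraries. For Phox2a in replicate 1 it was the coding-sequence peak near an internal start. The median over the 6 open members was 1.09 in replicate 1 and 1.10 in replicate 2, beside 2.11 and 4.33 over all genes open in both. No test was made of this difference. Gata3 entered the medians with different peaks, 2.18 in replicate 1 and 1.05 in replicate 2.

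**Figure D2:**
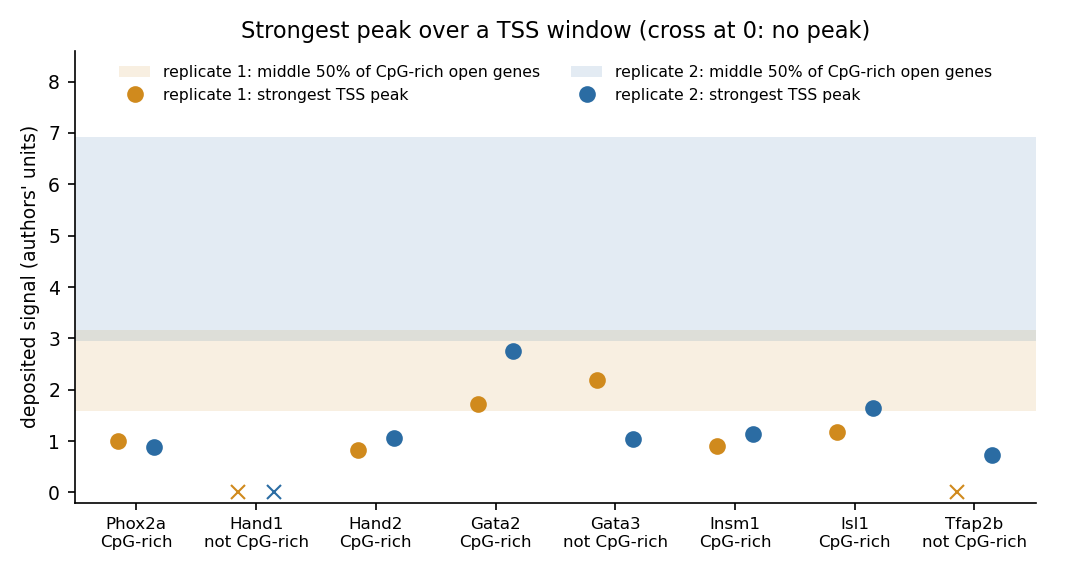
Strongest TSS peak of each gene, in the authors' signal units, for replicate 1 (orange) and replicate 2 (blue), with crosses at 0 for no peak. Shaded bands span the middle 50% of CpG-rich genes with a TSS peak in each library; in replicate 2 the 7 points, up to 2.75 at Gata2, lie below the band, which begins at 2.95. The Gata3 point of replicate 2, 1.05, leaves out the intronic peak of 5.60 that began just outside the TSS window. Gata3, Hand1 and Tfap2b are not CpG-rich at their 5′ ends, though the Gata3 start near its replicate 1 peak is.

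Related lists, chosen by function, are given beside the 61.3% of all protein-coding genes that were open in both libraries. Their counts were not tested against this share. Of 9 other sympathoadrenal regulators 7 were open in both libraries, with the highest signals at Sox4 (2.42 and 6.49), a factor of immature neural and many other cells, and Epas1 (2.52 and 4.21), the oxygen-regulated factor HIF-2α. Each of the 9, 8 of them CpG-rich, had a peak in at least replicate 2. In that library 14433 of all 21755 protein-coding genes and 9423 of the 9737 CpG-rich ones had one. Of 12 chromaffin effector genes 8 were open in both; Slc18a1, the vesicular monoamine transporter of chromaffin cells, reached 4.25 and 10.4, and Chgb, a granule protein, 2.85 and 8.12. Dbh and Pnmt were among the 3 with no TSS peak in either library. Of 10 cortex regulators 7 were open, led by Cited2 (3.90 and 10.6) and Nr4a1 (3.43 and 9.87). Of 10 relatives from the GATA, AP-2, ISL and INSM families 5 were open, led by Insm2 (1.53 and 5.01) and Gata6 (1.71 and 3.21), while Gata1 and Tfap2d had no peak in either library.

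Developmental factors of other tissues were the closest comparison by promoter type. Of 20 such genes, 13 of them CpG-rich, 2 were open in both libraries: Lhx2 with 1.01 and 1.79 and Barhl1 with 0.776 and 1.51, both CpG-rich. The share was 61.3% over all protein-coding genes and 94.5% over CpG-rich ones. In replicate 2, 8 of the 20 had a TSS peak, beside 14433 of all 21755 protein-coding genes and 9423 of the 9737 CpG-rich ones. The 12 others, among them Dlx5 and Foxa2, were without one in both. In the stricter lists 0 of the 20 were open in both libraries, beside 54.8% of all protein-coding genes and 88.9% of CpG-rich ones. For comparison, Hand2, Insm1, Phox2a and Isl1 had signals of 0.836 to 1.17 in the first library, replicate 1, and 0.880 to 1.65 in the other. Whether the share open differed between the lists was not tested, since both were chosen by name with earlier results of these data known.

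**Figure D3:**
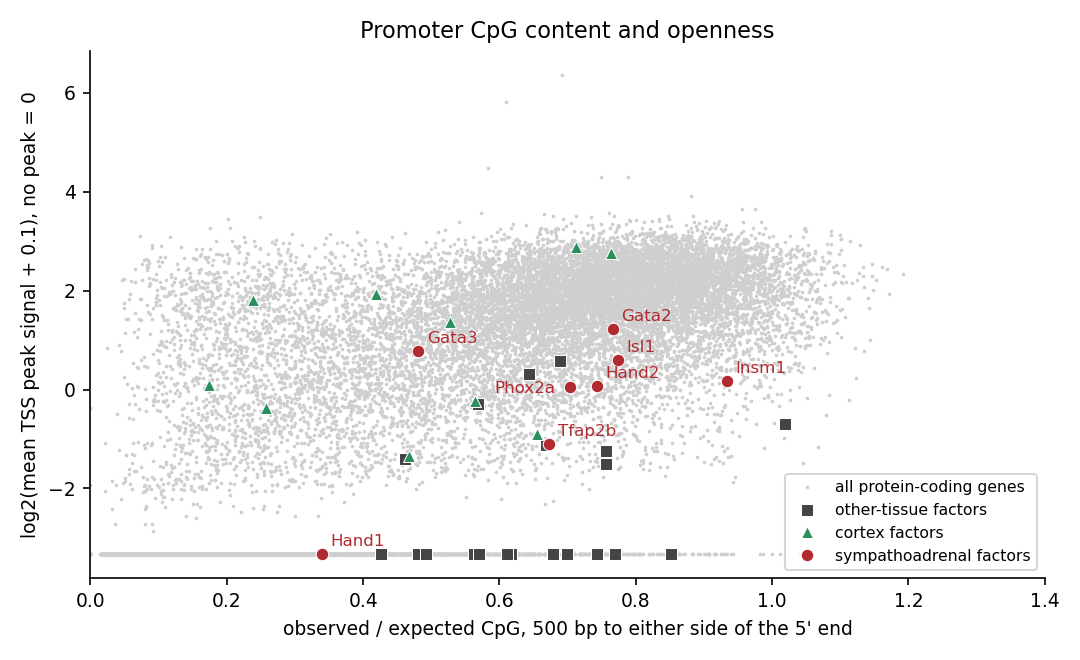
Promoter CpG content (horizontal, observed over expected, 500 bp to either side of the 5′ end) against openness (vertical, log2 of the mean deposited TSS peak signal of both libraries plus 0.1, no peak counted as 0) for all protein-coding genes (grey), the 8 regulators (red), cortex factors (green) and factors of other tissues (black). The CpG-rich regulators lie below most CpG-rich genes, and Hand1 and 12 of the 20 other-tissue factors lie on the line of genes without a peak.

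By signal in both libraries, CpG content and number of distal peaks, the genes most like the median profile of the 8, among 58 genes of these lists, were Ret, Tfap2c and Nr0b1. Their distances, over 4 values each scaled by its SD over all genes, were 0.426, 0.556 and 0.586. Ret, the receptor for glial-derived growth factors, had TSS signals of 0.597 and 0.598, Tfap2c, another AP-2 factor, had 1.19 and 2.88, and Nr0b1, the cortex regulator DAX-1, had 0.699 and 0.8005.

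Away from the starts, the 8 genes had an open region about as often as all genes, but fewer of them on average. A distal peak was one centred over 1 kb from any annotated TSS of any gene and within 100 kb of the gene's 5′ end, and it was shared when peaks of both libraries overlapped. The 8 genes had 18 distal peaks in replicate 1, 35 in replicate 2 and 13 shared. Their mean was 2.25 in replicate 1 and 4.375 in replicate 2, beside 2.69 and 7.03 over all protein-coding genes. Of all protein-coding genes 73.4% had at least 1 shared distal peak, against 6 of these 8. The members' mean was 1.62 shared peaks and their median 1, beside 2.31 and 2 over all genes. Gata2 had 5, Hand1 3, Phox2a 2, Hand2, Gata3 and Insm1 1 each, and Isl1 and Tfap2b 0. Of the 13, 5 had the member as the nearest protein-coding gene, so the others may belong to neighbours: at Gata2 0 of the 5 were nearest to it. One of the 2 at Phox2a is the coding-sequence peak described above, whose centre in replicate 2 lay 1073 bp from the nearest start. Some peaks reached a TSS window by an edge while centred over 1 kb from any start, and counted both as TSS peaks and as distal. These were that Phox2a peak in replicate 2, the Gata3 intronic peak in replicate 1 and the Tfap2b peak chr1:19209931-19210081 in replicate 2.

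The strongest of these regions, besides the one in Gata3, lay near Hand1 and Gata2. The Hand1 peak, chr11:57820081-57820260 in both libraries, reached 2.29 in replicate 1 and 5.73 in replicate 2, 12648 bp from the 5′ end in the direction of transcription and between genes, with Hand1 the nearest coding gene. This is the region with the CTCF core printed above. The Gata2 region, chr6:88106121-88106320, had 2.35 and 6.10, but it lay 87671 bp before the 5′ end and 4649 bp from the start of Rpn1, which encodes a subunit of the oligosaccharyltransferase. Its centre was 1962 bp from the nearest annotated start of any gene. The Hand1 and Gata2 regions were in the stricter list of both libraries. The Hand2 region, chr8:57328661-57328859, was weaker, with 0.887 and 1.31, and lay 7777 bp from the 5′ end; it was CpG-dense, with 20 CpGs and an observed over expected value of 0.978. The Insm1 region, chr2:146223505-146223645, lay in its coding sequence with 0.657 and 0.756, and the Phox2a region, chr7:101823221-101823400, lay in the untranslated end of the neighbour Inppl1 with 0.972 and 1.399. Isl1 had no shared distal peak within 100 kb, and the 2 distal peaks called, 1 per library, had signals of 0.307 and 0.246.

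**Figure D4:**
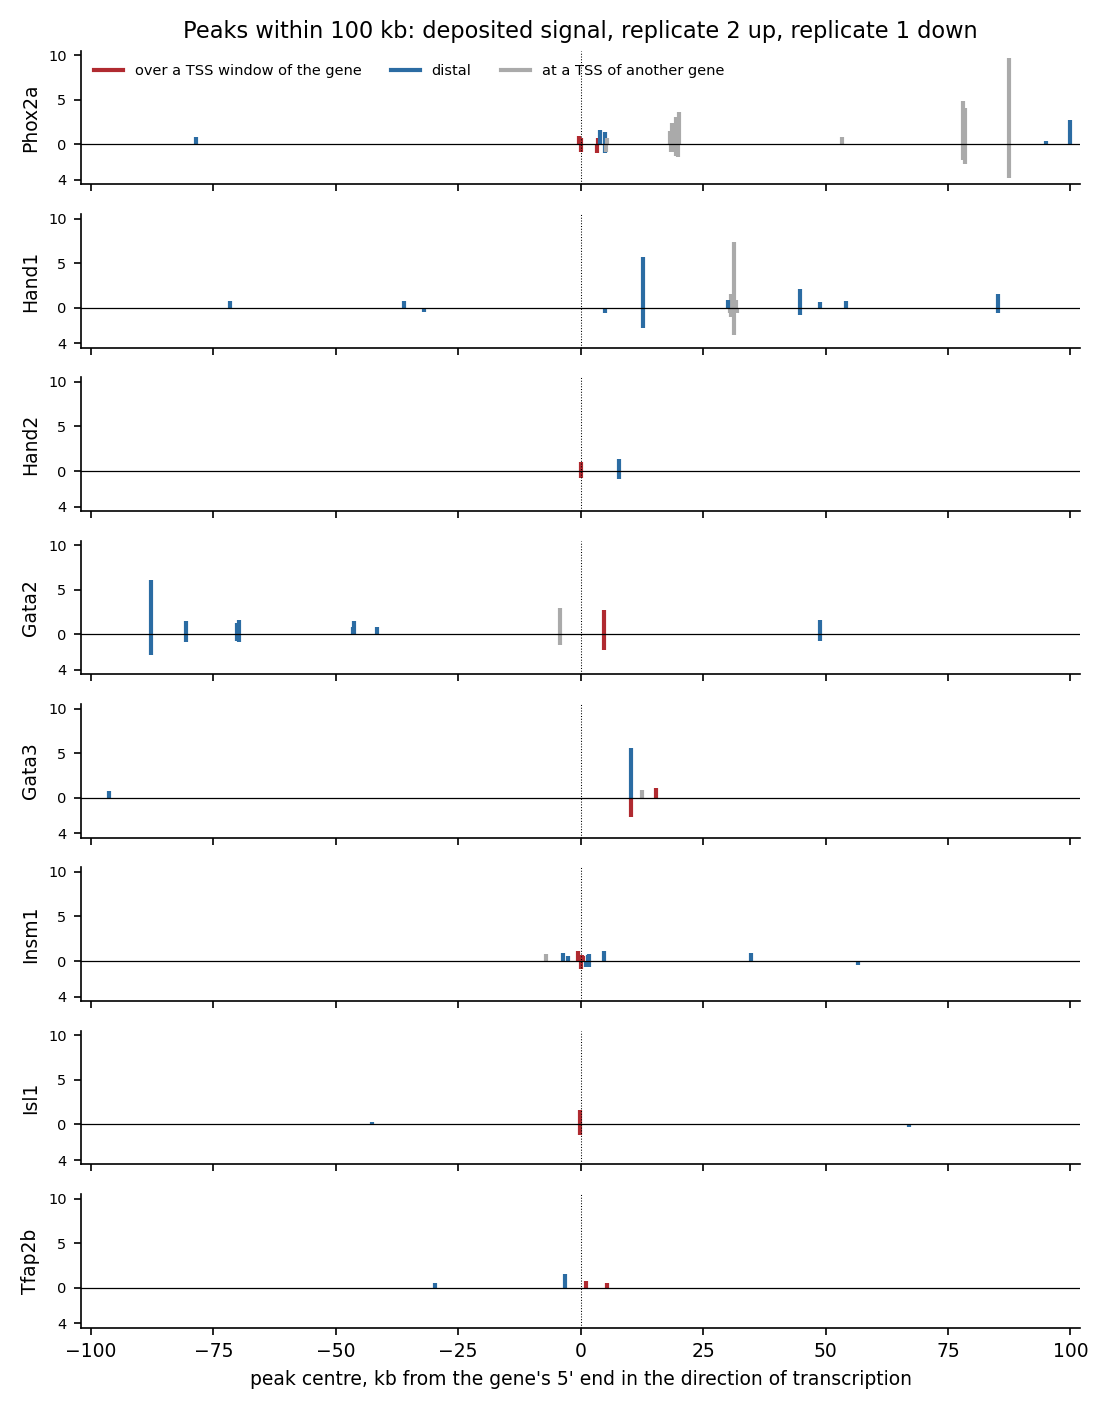
Peaks within 100 kb of each gene by distance of the peak centre from the 5′ end (horizontal, kb in gene direction) and deposited signal (vertical, replicate 2 up and replicate 1 down), coloured by class. The Gata3 intron, Hand1 downstream and Gata2 upstream regions stand out among the distal peaks (blue) of the set, with 5.60, 5.73 and 6.10 in replicate 2, and Isl1, Hand2 and Tfap2b have few peaks of any kind.

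In the 200 bp around their centres, the 12 shared distal peaks outside the TSS windows in replicate 2 held CAGCTG in 4 and GGGCGG in 3. TGANTCA and GCCNNNGGC, the AP-2 palindrome, were in 2 each. The GATA string GATAA was found in 1 of them, as were the HAND E box CATCTG, the homeodomain string CTAATG, the cAMP element TGACGTCA and the CTCF core. At Hand1 the CATCTG match lay in this window but outside the printed peak. Over all 17104 shared distal peaks the shares were 17.3% for CAGCTG, 14.6% for GGGCGG, 9.43% for TGANTCA, 11.1% for GCCNNNGGC, 14.96% for GATAA, 16.6% for CATCTG, 5.38% for CTAATG, 0.491% for TGACGTCA and 14.8% for the CTCF core. The PHOX2 palindrome, the NFI palindrome, CAAGGTCA, the site of the cortex factor NR5A1, and TTCAGCACC, the REST half-site, were in 0 of the 12, and they were in 0.134%, 0.193%, 2.34% and 1.06% of all. At the 5 shared TSS peaks GCCNNNGGC was found in 3, GGGCGG and CAGCTG in 2 each and GATAA in 1, beside 22.5%, 56.8%, 11.7% and 6.76% of 22162 shared TSS peaks. Both strands were searched, a match to GCCNNNGGC can overlap one to GGGCGG, a match is only a string of letters, and numbers this small describe these peaks and nothing beyond them.

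Footprints were present at the starts in both libraries at 4 of the 8 genes, Phox2a, Gata2, Insm1 and Isl1, beside 59% of all protein-coding genes. At 3 of them, Gata2, Insm1 and Isl1, a footprint of one library overlapped one of the other. Phox2a had 2 and 3 footprints that did not overlap. Tfap2b had 2 in replicate 2 alone, and Hand1 and Gata3 had 0 in their TSS windows.

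The libraries also differed in how the members' peaks scaled. Signals were mostly higher in replicate 2: over all TSS peaks that overlapped 1 to 1 between libraries the median ratio of replicate 2 to replicate 1 was 1.95 (n = 18205 peaks), and over distal peaks 2.24 (n = 16576). At the shared TSS peaks of the members the ratio was 0.701 at Insm1, 0.734 at Phox2a, 1.27 at Hand2, 1.42 at Isl1 and 1.60 at Gata2. Each lay below the lower quartile of TSS peaks with a like signal in replicate 1, which was 1.33 for the class of Hand2 and Insm1, 1.45 for that of Phox2a and Isl1 and 1.61 for that of Gata2. Of the 12 shared distal peaks outside the TSS windows by their bounds in replicate 2, 9 lay within the quartiles of distal peaks of their class. The 3 strongest were among the 9: 2.51 at Hand1, 2.57 at Gata3, whose peak in replicate 1 was also its TSS peak, and 2.59 at Gata2. For the class of these 3 the median was 2.48 and the quartiles 2.12 and 2.87. The other 3 were below the lower quartile, as the TSS peaks were: 1.44 at Phox2a and 1.48 at Hand2, beside 1.72, and 1.15 at Insm1, beside 1.58. Ratios near or below 1.2 were also seen at Ret, Npy and Nr0b1, picked after values were seen. Their strongest TSS peaks had 0.597 and 0.598, 0.836 and 0.932, and 0.699 and 0.8005. The lists they came from rose more as a whole. Median signals of genes open in both libraries were 1.69 and 3.30 for 7 other sympathoadrenal regulators. They were 1.58 and 3.63 for 8 chromaffin effectors, and 1.77 and 5.07 for 7 cortex factors. The comparison of ratios was chosen after the values were seen, and the peaks of the 2 libraries differ in width. Whether a different share of medulla in the samples moves with the ratios was not tested.

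**Figure D5:**
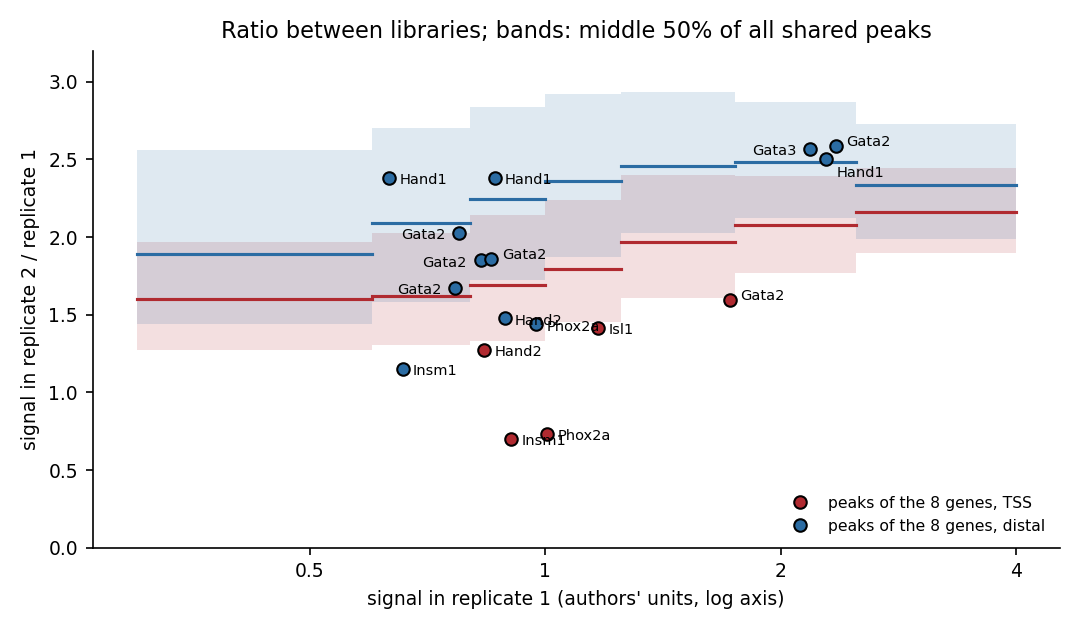
Ratio of deposited signal, replicate 2 over replicate 1 (vertical), by the signal in replicate 1 (horizontal, log axis), for shared peaks of the 8 genes. Points are red for TSS and blue for distal peaks, as classed by their bounds in replicate 2. Lines and bands give the median and the middle 50% of all TSS (red) and distal (blue) peaks by signal class; the 5 TSS points lie below the red band and the Phox2a, Hand2 and Insm1 distal points below the blue one, while the Hand1, Gata2 and Gata3 distal points lie inside it.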

How the data were processed

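DNase-seq peaks, footprints and false discovery rates of 2 libraries were used as the authors deposited them, on mm10 per the labels and file headers. The deposited signal is 1 value per peak, with a scaling that the sources used here do not state. The deposited p-value columns hold false discovery rates of the local cut rate, listed below 0.05, and a constant of 0.01 in every footprint. The sources used here name no aligner, caller, filter or read depth, so counting error could not be computed. The longer peak list was the main set and the shorter the stricter one. Genes came from GENCODE M21 and sequences from GRCm38.p6; RefSeq promoter entries existed for 6 of the 8 genes and were not printed. A TSS peak was one that reached into the window of 1 kb around any annotated TSS, and the strongest was kept; peaks of both libraries did not have to overlap. Shared peaks overlapped by at least 1 bp. Reads of both parental genomes were placed on 1 reference. Python 3.11.15 and numpy 2.4.6 were used, and the counting code was tested on simulated data.

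The members and lists were chosen with earlier results of these data known. All 8 genes were named; from each list, the 2 genes with the highest mean signal and the first 2 alphabetically without a TSS peak; and per gene the strongest distal peak. Genes named beside these, such as Ret, Npy and Lck, and the CTCF core, the footprint bases and the ratios between libraries were chosen after values were seen. Alternatives covered the peak list, windows, TSS choice, CpG definition, overlap, equal peak numbers and each library alone. No p-value was computed, since the labels give 1 group, and the 2 libraries carry 1 donor identifier, so their spread may be technical.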

Additional observations from a re-analysis of the deposited data

How the results depend on the processing

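Of 60 alternatives, 41 left a value within 1.5 times or 1 SD of the one reported and 19 did not. The rule of 1.5 times held for counts, so a drop from 6 regulators to 4 counted as unchanged. The SD held for the median signals. It was 0.0163, taken over the medians of the 2 libraries alone, and does not measure sampling error. With the stricter peak lists, regulators open in both libraries numbered 2, CpG-rich ones 2, other-tissue factors 0 and shared distal peaks 4. With a TSS window of 2.5 kb the other-tissue factors numbered 5, and with the 5′ end alone 1. Leaving out 1 library at a time gave 6 to 7 regulators, 5 CpG-rich ones, 2 to 8 other-tissue factors, 18 to 35 distal peaks and 5 regulators with a footprint; without replicate 1 the other-tissue count rose from 2 to 8 and the distal count from 13 to 35. A CpG threshold of 0.75 with 55% G or C left 3 CpG-rich regulators. Shared distal peaks numbered 8 within 50 kb, 27 within 200 kb, 8 at over 2.5 kb from any TSS, and 5 when the regulator had to be the nearest coding gene. The median TSS signal in replicate 1 was 0.895 with the 5′ end alone, 0.904 with a 500 bp window and 0.955 with peakless genes at 0. In replicate 2, where the median over 7 genes was 1.06, it was 1.10 with the 5′ end alone, 1.10 with 500 bp and 1.57 with 2.5 kb. Gata3 was lost with a 500 bp window, and Phox2a when the libraries were given equal peak numbers. The cause was not tested. No paired analysis was possible because the labels give 1 group. A group of 2 libraries is too small to look for a sample standing apart.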
